A study of Mus musculus with 4 samples.

Results

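The tubulin genes measured in mouse 2-cell embryos were 4 alpha-tubulin genes (Tuba1a, Tuba1b, Tuba1c and Tuba4a), 5 beta-tubulin genes (Tubb2a, Tubb2b, Tubb4b, Tubb5 and Tubb6) and the gamma-tubulin gene Tubg1. They were chosen by name from the deposited table, with earlier results of these data known, and they are 10 of its 30049 genes. All 10 averaged 1 TPM or more (TPM, a transcript's share of a library after scaling reads by transcript length) and were among the 12038 genes tested. Wild-type zygotes from BDF1 × BDF1 matings (BDF1 being the first generation of C57BL/6 crossed with DBA/2, from adult mice) were taken 18 h post hCG (human chorionic gonadotropin, which triggers ovulation) and grown for 24 h in KSOM, a culture medium for preimplantation embryos. The control group grew in KSOM alone and the DMSO group in KSOM with 2% dimethyl sulfoxide, a solvent, and 50 embryos at the 2-cell stage were collected for each group as pools. There are 2 libraries per group, numbered as replicates 1 and 2, and nothing states that they came from separate cultures, so the p-values measure only the spread between these libraries, which may be technical. TPM values keep no depth, so the number of reads behind each value is unknown.

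Microtubules are hollow polymers of dimers of alpha- and beta-tubulin, and gamma-tubulin sits in ring complexes from which they grow. In the early mouse embryo they form the spindles of the first cleavages, which assemble without centrioles. Newly made tubulin is folded by prefoldin, the CCT chaperonin and the cofactors Tbca to Tbce. Cells also hold their tubulin level by autoregulation, in which an excess of free dimers leads to decay of tubulin mRNA on the ribosome once the first residues of the new chain are recognised by Ttc5. These statements are background and were not measured here.

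The first coding bases of the genes show how alike the copies are, which limits how far reads can be assigned to one of them. The start codon and the next 3 codons, which in alpha- and beta-tubulin encode the end of the chain read in autoregulation, are in capitals, on GRCm38 transcripts of GENCODE M21, with the gene on the strand given.
Tuba1a (start codon chr15:98953451-98953453, minus strand): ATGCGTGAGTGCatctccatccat
Tuba1b (start codon chr15:98934333-98934335, minus strand): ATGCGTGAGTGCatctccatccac
Tuba1c (start codon chr15:99030422-99030424, plus strand): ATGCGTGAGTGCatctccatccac
Tuba4a (start codon chr1:75219193-75219195, minus strand): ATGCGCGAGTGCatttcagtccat
Tubb2a (start codon chr13:34077927-34077929, minus strand): ATGCGCGAGATCgtgcacatccag
Tubb2b (start codon chr13:34130231-34130233, minus strand): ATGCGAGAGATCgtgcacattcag
Tubb4b (start codon chr2:25224588-25224590, minus strand): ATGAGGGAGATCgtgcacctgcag
Tubb5 (start codon chr17:35838051-35838053, minus strand): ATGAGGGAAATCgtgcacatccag
Tubg1 (start codon chr11:101120194-101120196, plus strand): ATGCCGAGAGAAatcatcacccta
Tuba1a, Tuba1b and Tuba1c share the same first 12 bases, and Tuba1b and Tuba1c the same first 24. Among the 4 alpha genes there were 2 distinct versions of the first 12 bases, and among the 4 beta genes shown there were 4. The last of the codons in capitals was the same in all 4 alpha genes, and another codon was the same in all 4 beta genes. Tubb6 is not shown.

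Over whole coding sequences, Tuba1a was 98.3% identical to Tuba1b and 97.1% to Tuba1c, and Tuba1b was 97.9% identical to Tuba1c. Tubb2a and Tubb2b were 96.5% identical, while Tuba4a was 84.8% identical to Tuba1a and Tubb5 82.3% to Tubb4b. The authors' quantifier, kallisto, matches words of 31 bases and splits reads that fit several transcripts by an estimate. Of the 31-base words of Tuba1a 59.5% also occur in another tubulin gene, against 63.5% for Tuba1b, 53.8% for Tuba1c, 51.1% for Tubb2a and 35.2% for Tubb2b. The share was 18.2% for Tubg1, all of it with Tubg2, and at most 2.58% for Tuba4a, Tubb4b, Tubb5 and Tubb6. The levels of the Tuba1 copies and of the Tubb2 copies are therefore uncertain one by one, and sums are given beside them. The sums do not cover words shared outside the family, which raise the share to 68.1% for Tuba1a and 68.7% for Tuba1b. Slc7a11 holds 12.5% of the words of Tuba1a. It was at 3.26 and 2.18 TPM in control replicates 1 and 2, and at 7.41 and 5.41 TPM in DMSO replicates 1 and 2. The part of this sharing in the level of Tuba1a was not tested. Of the words of Tubb4b 53.0% occur in other genes, mostly its pseudogenes Tubb4b-ps1 and Tubb4b-ps2, which were listed at no more than 0.364 and 0.418 TPM in any library.

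The Tuba1 copies lie together on chromosome 15 of GRCm38, Tuba1b from 98931425 to 98934565, Tuba1a from 98949837 to 98953703 and Tuba1c from 99029891 to 99038110. Tubb2a (34074274 to 34078007) and Tubb2b (34126748 to 34130466) are neighbours on chromosome 13. Tubb4b lies on chromosome 2 from 25222160 to 25224702, Tubb5 on chromosome 17 from 35833921 to 35838306, Tubg1 on chromosome 11 from 101119938 to 101126419 and Tuba4a on chromosome 1 from 75214228 to 75219865. In the table the alpha genes are ENSMUSG00000072235 (Tuba1a), ENSMUSG00000023004 (Tuba1b), ENSMUSG00000043091 (Tuba1c) and ENSMUSG00000026202 (Tuba4a), the beta genes ENSMUSG00000058672 (Tubb2a), ENSMUSG00000045136 (Tubb2b), ENSMUSG00000036752 (Tubb4b), ENSMUSG00000001525 (Tubb5) and ENSMUSG00000001473 (Tubb6), and Tubg1 is ENSMUSG00000035198. Each value sums the transcripts of a gene.

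Tubb4b, a beta-tubulin of broad expression, was by far the most abundant of the 10 genes. Its TPM level was 677 and 535 in control replicates 1 and 2, and 685 and 515 in DMSO replicates 1 and 2. The groups overlapped, and in each group replicate 1 was the higher library. Further pairs of values are in the order of replicates 1 and 2. Its log2 fold change was -0.02 (SE, the standard error, 0.27, 95% interval from -0.67 to 0.64, limma adjusted p = 0.967), so that a change of more than about 0.67 in either direction lies outside the interval. By mean TPM over the 4 libraries it ranked 165th of the 12038 genes tested.

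The other levels were lower. In control embryos, mean TPM ± SD (n = 2) was 58.9 ± 16.2 for Tubg1, 40.6 ± 14.2 for Tubb5, 30.1 ± 15.9 for Tuba1c, 26.4 ± 23.8 for Tubb2a, 16.9 ± 3.43 for Tuba1b, 13.8 ± 7.76 for Tubb6, 11.6 ± 0.156 for Tuba4a, 7.82 ± 3.26 for Tuba1a and 0.700 ± 0.751 for Tubb2b. In this order the libraries of Tubb4b lay apart from those of Tubg1, those of Tuba4a from those of Tuba1a, and those of Tuba1a from those of Tubb2b, whereas the libraries of every other pair of neighbours overlapped. In DMSO embryos the mean TPM levels ran from 600.2 ± 120.1 for Tubb4b over 122.0 ± 85.5 for Tubb2a, 52.4 ± 14.1 for Tubg1, 38.2 ± 16.4 for Tuba1c, 32.6 ± 9.70 for Tubb6, 28.2 ± 4.63 for Tubb5, 25.1 ± 5.45 for Tuba1a, 21.1 ± 6.10 for Tuba4a and 9.39 ± 0.894 for Tuba1b to 3.90 ± 1.25 for Tubb2b. Here Tubb4b lay apart from Tubb2a, Tuba4a from Tuba1b and Tuba1b from Tubb2b, and the other neighbours overlapped. Tubb2a was at place 5 in control embryos and at place 2 in DMSO embryos, with an SD that was a large part of its mean in both.

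**Figure D1:**
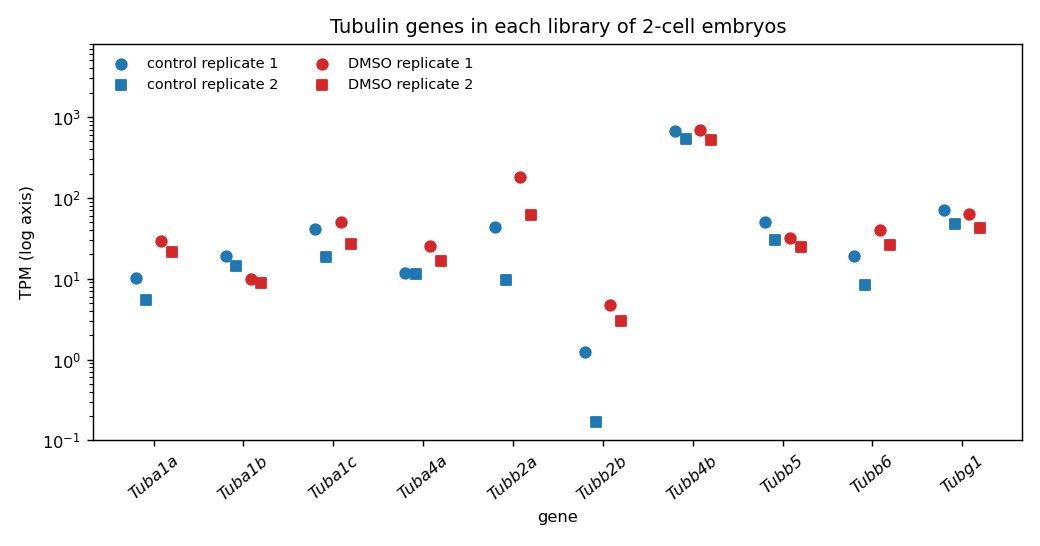
TPM of the 10 tubulin genes on a log axis, with 1 point per library, control in blue and DMSO in red, circles for replicate 1 and squares for replicate 2. Tubb4b sits between 515 and 685 TPM in all 4 libraries, while both DMSO points lie above both control points for Tuba1a, Tuba4a, Tubb2a, Tubb2b and Tubb6 and below them for Tuba1b.

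Of the 10 genes, 2 rose in DMSO-treated embryos, Tuba1a and Tubb2b, and 0 fell, at an adjusted p-value under 0.05 (limma on log2(TPM + 1), adjusted over all genes tested). Over all genes tested 20.5% passed this threshold, 6.42% higher and 14.1% lower, so that the 2 of 10 are near the background in number. Tubb2b averaged 0.700 TPM in control embryos and 3.90 TPM in DMSO embryos, so it passed the filter of 1 TPM only through the DMSO group, and its call is given as a description (limma adjusted p = 0.161 with no filter). Of all calls 31.3% were higher in DMSO embryos, a share that was 42.9% under median-ratio scaling and 49.0% under quantile normalization. In 6 of the 10 genes the unadjusted p-value was under 0.05, as it was in 40.2% of all genes tested. The groups did not overlap for 6 of the 10, 5 higher and 1 lower in DMSO embryos, against 69.8% of all genes tested (31.1% higher and 38.7% lower, as shares of all genes tested). The median log2 fold change of the 10 genes was 0.58, and that of all genes tested -0.09. With each library left out in turn, the log2 fold change lay between 1.21 and 1.98 for Tuba1a and between 1.11 and 2.04 for Tubb2b. It changed sign in some of these fits for Tuba1c, Tubb4b and Tubg1. In those fits 1 group is a single library, which is assumed to vary like the other pair.

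Among the listed alpha-tubulin genes Tuba1a, the copy best known from neurons, had the lowest control level. It was at 10.1 and 5.51 TPM without DMSO and at 28.9 and 21.2 TPM with DMSO. Both DMSO libraries were above both control libraries, and the log2 fold change was 1.60 (SE 0.37, limma adjusted p = 0.0332). Leaving out each library in turn gave values from 1.21 to 1.98.

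Tuba1b, a copy used in most cell types, had the opposite order. Its TPM level was 19.4 and 14.5 without DMSO and 10.0 and 8.76 with DMSO, without overlap. The log2 fold change of -0.78 did not pass the threshold (SE 0.31, limma adjusted p = 0.110). The ratio of Tuba1a to Tuba1b, which does not depend on scaling between libraries, was 0.523 and 0.380 without DMSO and 2.89 and 2.42 with DMSO. On the log2 scale this ratio differed by 2.57 between the groups (exact permutation test, two-sided, p = 0.333, the smallest that 2 libraries against 2 allow). Since more than 50% of the words of both genes are shared with other tubulin genes, how the quantifier divided reads between them bears on this ratio, and its part was not tested. Their sum was 29.5 and 20.02 TPM without DMSO and 38.9 and 29.97 TPM with DMSO, without overlap.

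Tuba1c was the most abundant alpha gene in every library. It was at 41.3 and 18.8 TPM without DMSO and at 49.8 and 26.6 TPM with DMSO. The 2 control libraries differed from each other by more than the group means did, and the log2 fold change was 0.37 (SE 0.47, 95% interval from -0.74 to 1.49, limma adjusted p = 0.570). The sum of Tuba1a, Tuba1b and Tuba1c, which is free of the split between them, was 70.8 and 38.8 TPM without DMSO and 88.7 and 56.6 TPM with DMSO, with overlap.

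Tuba4a, an alpha-tubulin that differs more in sequence from the Tuba1 copies, was at 11.7 and 11.4 TPM without DMSO and at 25.4 and 16.8 TPM with DMSO. The groups did not overlap, and the log2 fold change was 0.79 (SE 0.32, limma adjusted p = 0.116), with values from 0.50 to 1.07 when each library was left out in turn. The gene overlaps Stk16, a kinase gene on the other strand (chromosome 1 from 75210838 to 75215606), over 1379 bases, and 35.6% of the words of Tuba4a also occur in Stk16, counted on either strand. Stk16 fell, being at 68.8 and 67.3 TPM without DMSO and at 13.8 and 28.3 TPM with DMSO (log2 fold change -1.73, limma adjusted p = 0.0297). Without strand, reads from the shared stretch cannot be told apart, and the level of Tuba4a is uncertain to that extent.

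Among the listed beta-tubulin genes the Tubb2 pair and Tubb6 had the higher values in DMSO embryos. Tubb2a was at 43.2 and 9.58 TPM without DMSO and at 182 and 61.6 TPM with DMSO. Both DMSO libraries were above both control libraries, although the 2 libraries of each group lay far apart. Its log2 fold change of 2.31 was the largest of the 10 on this scale, though not with a pseudocount of 0.1 (2.37 against 2.70 for Tubb2b), and did not pass the threshold (SE 0.75, 95% interval from 0.50 to 4.11, limma adjusted p = 0.0717). Leaving out each library in turn gave values from 1.28 to 3.34. With the replicate number as a block Tubb2a passed (limma adjusted p = 0.00260), as did Tuba1a, Tuba1b, Tuba4a, Tubb2b and Tubb6. Over all genes tested 42.6% passed with this block, and what the number marks is not stated.

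Tubb2b, the near copy of Tubb2a, was at 1.23 and 0.169 TPM without DMSO and at 4.79 and 3.01 TPM with DMSO. These are the lowest levels of the 10 genes. The log2 fold change was 1.58 (SE 0.44, limma adjusted p = 0.0493), close to the threshold. With a pseudocount of 0.1 the log2 fold change was larger, 2.70, and the limma adjusted p-value was 0.0791. The sum of the Tubb2 pair was 44.5 and 9.75 TPM without DMSO and 187 and 64.6 TPM with DMSO, and Tubb2a held nearly all of it in each. The ratio of Tubb2a to Tubb2b overlapped between the groups, at 35.1 and 56.6 without DMSO and 38.1 and 20.4 with DMSO.

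Tubb6, a divergent beta-tubulin found in many tissues, was at 19.3 and 8.29 TPM without DMSO and at 39.5 and 25.8 TPM with DMSO. The groups did not overlap, and the log2 fold change was 1.26 (SE 0.44, limma adjusted p = 0.0836), with values from 0.70 to 1.82 when each library was left out in turn. Tubb5, the beta-tubulin of dividing cells in general, was at 50.7 and 30.5 TPM without DMSO and at 31.5 and 25.0 TPM with DMSO. DMSO replicate 1 lay inside the range of the controls, and the log2 fold change was -0.47 (SE 0.34, 95% interval from -1.28 to 0.33, limma adjusted p = 0.319), with values from -0.83 to -0.12 when each library was left out in turn. The ratio of Tubb5 to Tubb6 was 2.63 and 3.68 without DMSO and 0.798 and 0.969 with DMSO, so that Tubb5 was the higher of the pair in both control libraries and the lower in both DMSO libraries (difference of -1.82 on the log2 scale, exact permutation p = 0.333, the smallest possible). These genes share at most 2.58% of their words with other tubulin genes.

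Tubg1, gamma-tubulin, was at 70.4 and 47.5 TPM without DMSO and at 62.3 and 42.4 TPM with DMSO. The groups overlapped, with a log2 fold change of -0.17 (SE 0.33, 95% interval from -0.95 to 0.62, limma adjusted p = 0.722). Its neighbour on chromosome 11 and only paralog, Tubg2 (101155907 to 101161787), was at 57.3 and 24.3 TPM without DMSO and at 94.7 and 56.8 TPM with DMSO. DMSO replicate 2 was below control replicate 1, and the log2 fold change was 0.95 (SE 0.46, limma adjusted p = 0.169), with values from 0.35 to 1.56 when each library was left out in turn. The ratio of Tubg1 to Tubg2 was 1.23 and 1.96 without DMSO and 0.658 and 0.747 with DMSO, a difference of -1.14 on the log2 scale (exact permutation p = 0.333, the smallest possible).

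**Figure D2:**
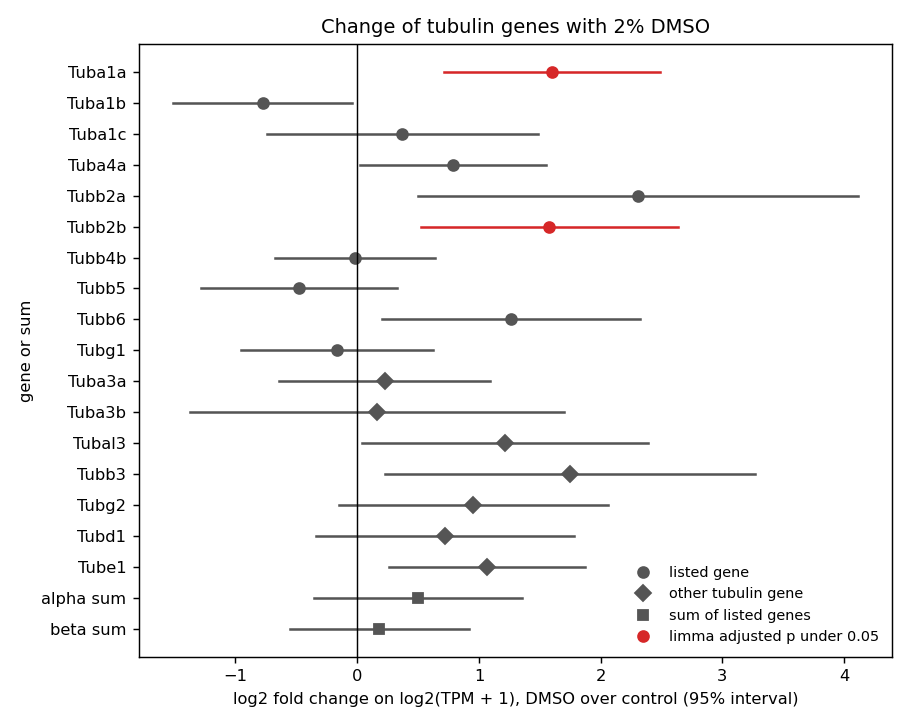
Log2 fold change on log2(TPM + 1), DMSO over control, with 95% intervals from limma, for the listed tubulin genes, the other tubulin genes tested and the sums of the listed alpha and beta genes, red where the adjusted p-value is under 0.05. Tuba1a (1.60) and Tubb2b (1.58) are the genes in red, Tubb2a has the largest value at this pseudocount of 1 (2.31) and the widest interval, and Tubb4b sits at -0.02.

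Summed over copies, neither family passed the test. The 4 alpha genes summed to 82.5 and 50.2 TPM without DMSO and to 114 and 73.3 TPM with DMSO. The 5 beta genes summed to 791 and 583 TPM and to 943 and 631 TPM. Both sums overlapped between the groups, with log2 fold changes of 0.50 (SE 0.36, 95% interval from -0.35 to 1.35, limma adjusted p = 0.322) and 0.18 (SE 0.31, 95% interval from -0.55 to 0.92, limma adjusted p = 0.673). Without Tubb4b, a choice made after the data had been seen, the other 4 beta genes summed to 114 and 48.6 TPM without DMSO and to 258 and 115 TPM with DMSO. Here DMSO replicate 2 was barely above control replicate 1, and the log2 fold change was 1.20 (SE 0.52, limma adjusted p = 0.135). The ratio of the alpha sum to the beta sum was 0.104 and 0.0862 without DMSO and 0.121 and 0.116 with DMSO, a difference of 0.32 on the log2 scale (exact permutation p = 0.333, the smallest possible). With all annotated alpha and beta genes the ratio overlapped between the groups (difference 0.19, exact permutation p = 0.667).

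The make-up of each sum does not depend on scaling between libraries. Tuba1a made up 12.3% and 11.0% of the alpha sum without DMSO and 25.3% and 28.9% with DMSO. Tuba1b made up 23.5% and 28.9% without DMSO and 8.78% and 11.9% with DMSO, so that Tuba1b was the larger of the pair in both control libraries and the smaller in both DMSO libraries. The shares of Tuba1c, from 36.3% to 50.1% over the 4 libraries, and of Tuba4a, from 14.1% to 22.9%, overlapped between the groups. Tubb4b made up 85.5% and 91.7% of the beta sum without DMSO and 72.6% and 81.7% with DMSO. Tubb2a made up 5.47% and 1.64% without DMSO and 19.3% and 9.76% with DMSO, and Tubb6 2.44% and 1.42% against 4.18% and 4.08%. The share of Tubb5 was 6.41% and 5.24% without DMSO and 3.34% and 3.96% with DMSO. The shares of all 5 beta genes were without overlap between the groups. In TPM, which is another measure, 69.8% of all genes tested did not overlap either. Shares of 1 sum are not independent of each other, so these are not 5 separate results.

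**Figure D3:**
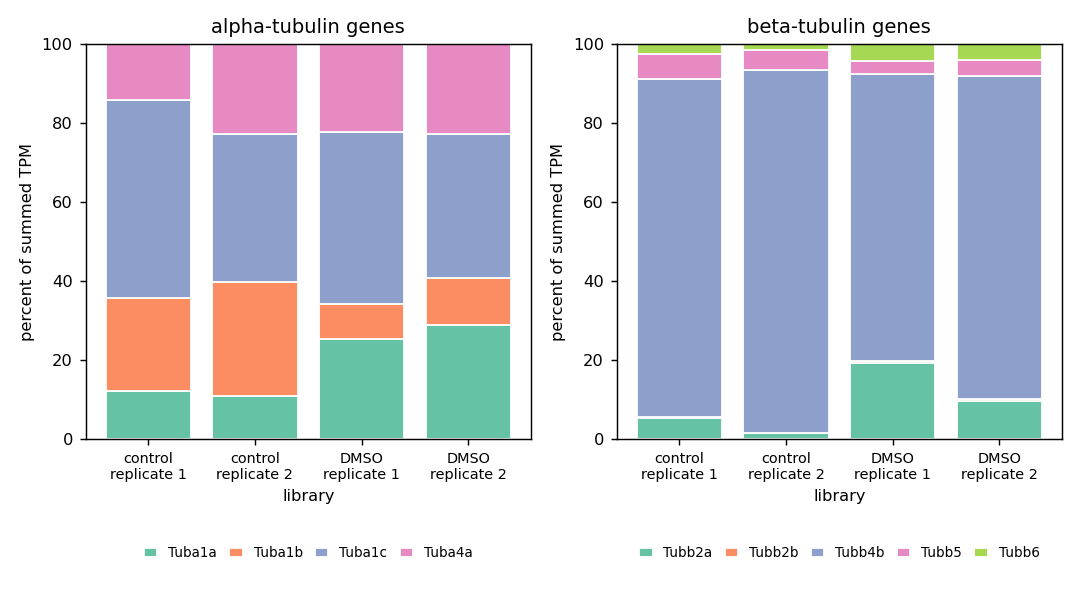
Percent of the summed TPM of the 4 alpha genes (left) and of the 5 beta genes (right) held by each gene, 1 stacked bar per library. Tuba1a is the larger of Tuba1a and Tuba1b only in the DMSO bars, and the Tubb4b part is 85.5% and 91.7% in the control bars and 72.6% and 81.7% in the DMSO bars.

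Replicate 1 was above replicate 2 for all 10 genes in the control group and for all 10 in the DMSO group. The median ratio of replicate 1 to replicate 2 over the 10 genes was 1.75 in the control group and 1.49 in the DMSO group, against 1.12 and 1.05 over all genes tested. Of all genes tested, 61.8% were higher in control replicate 1 than in control replicate 2 and 53.8% higher in DMSO replicate 1 than in DMSO replicate 2. What sets the replicates apart is not stated.

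Of the 10 other annotated tubulin genes, 7 averaged 1 TPM or more. All 7 had positive log2 fold changes, with a median of 0.95 against -0.09 for all genes tested, and 0 were called by limma, 3 having an unadjusted p-value under 0.05, against 20.5% and 40.2% of all genes tested. Tubb3, the beta-tubulin used as a marker of neurons, was at 30.02 and 10.6 TPM without DMSO and at 109 and 36.1 TPM with DMSO, a spread like that of Tubb2a. The groups did not overlap, and its log2 fold change was 1.75 (SE 0.63, limma adjusted p = 0.0907), with values from 0.97 to 2.53 when each library was left out in turn. Tube1, epsilon-tubulin, which acts in centriole formation, was at 2.02 and 1.78 TPM without DMSO and at 5.89 and 4.32 TPM with DMSO, a log2 fold change of 1.06 (SE 0.34, limma adjusted p = 0.0660). The divergent alpha gene Tubal3 was at 2.06 and 1.08 TPM against 7.97 and 2.83 TPM, and delta-tubulin, Tubd1, at 0.777 and 2.30 TPM against 3.95 and 2.22 TPM. The testis alpha copies Tuba3a and Tuba3b, which share words with each other, had log2 fold changes of 0.22 and 0.16 (limma adjusted p = 0.660 and 0.860). Tuba8 reached no more than 0.231 TPM and Tubb4a 0.320 TPM in any library, and Tubb1, the beta-tubulin of platelets, was listed at 0 in all 4.

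The genes that fold tubulin were looked up as lists chosen by name. Of the 6 cofactor genes tested 0 were called by limma, with 2 at an unadjusted p-value under 0.05 (20.5% and 40.2% of all genes tested) and a median log2 fold change of 0.17. Tbca, which binds beta-tubulin, had the lowest p-value of them, at 122 and 89.2 TPM without DMSO and 214 and 164 TPM with DMSO (log2 fold change 0.84, limma adjusted p = 0.0805). Its limma adjusted p-value was 0.0406 under quantile normalization, at a log2 fold change of 1.11, and 0.0119 when the replicate number was a block. Of 6 prefoldin genes 1 rose and 2 fell, against 6.42% and 14.1% of all genes tested. Pfdn6 fell from 219 and 319 TPM to 33.8 and 52.5 TPM (log2 fold change -2.62, limma adjusted p = 0.0181), Pfdn2 fell by 1.04 on the log2 scale (limma adjusted p = 0.0324), and Pfdn4 rose by 0.99 (limma adjusted p = 0.0496). The Pfdn4 call was lost with a pseudocount of 0.1 and without the trend, and the Pfdn2 call without the trend and under quantile normalization. Without DMSO replicate 2 the Pfdn2 call was lost as well, at a log2 fold change of -1.11. Of 7 CCT chaperonin genes tested 4 fell and 0 rose, against 14.1% and 6.42% of all genes tested, namely Cct4 (log2 fold change -1.93), Cct2 (-1.45), Cct8 (-1.32) and Tcp1 (-1.21), with limma adjusted p-values between 0.0185 and 0.0285. Under quantile normalization Cct8 (limma adjusted p = 0.0552) and Tcp1 (limma adjusted p = 0.0588) did not pass, which left 2 of the 7, against 9.31% of all genes called lower there. With no filter and without control replicate 1, control replicate 2 or DMSO replicate 1, limma called 0 genes of any list. The median of the CCT list was -1.21, and its summed level was 1089 and 1183 TPM without DMSO and 490 and 600 TPM with DMSO, without overlap. This sum covers 7 of the 8 listed genes, since Cct6a was not found by name in the deposited table. The listed tubulin genes, which these chaperonins fold, summed to 944 and 681 TPM and to 1120 and 746 TPM, with overlap.

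Nucleation, autoregulation and modification were looked up in the same way. Of 9 genes of the gamma-tubulin complex 0 were called by limma, 2 reached an unadjusted p-value below 0.05 (20.5% and 40.2% of all genes tested), and the list had a median log2 fold change of -0.18. Nedd1, which recruits the complex to the spindle, had the lowest p-value, at 26.5 and 23.5 TPM without DMSO and 76.6 and 39.8 TPM with DMSO (log2 fold change 1.12, limma adjusted p = 0.0714, or 0.0437 under quantile normalization, 0.0164 with the replicate block and 0.0383 without DMSO replicate 2). Leaving out each library in turn gave values from 0.65 to 1.58. Ttc5, the factor that recognises new tubulin in autoregulation, was at 1.83 and 1.74 TPM without DMSO and at 0.355 and 0.786 TPM with DMSO, and the log2 fold change of -0.84 did not pass the threshold (limma adjusted p = 0.124). These are low levels, and of the other genes of that list Cnot11 did not pass either (log2 fold change 0.82, limma adjusted p = 0.125) and Scaper was below 1 TPM. Of 15 tubulin modifying enzymes tested 2 rose and 1 fell, close to the 20.5% called over all genes tested. The glutamylase Ttll11 rose from 4.87 and 2.47 TPM to 19.7 and 10.6 TPM (log2 fold change 1.78, limma adjusted p = 0.0368), the carboxypeptidase Agbl3 rose by 1.37 on the log2 scale (limma adjusted p = 0.0297), and the glutamylase Ttll9 fell by 1.53 (limma adjusted p = 0.0408). Without DMSO replicate 2 neither Agbl3 (limma adjusted p = 0.0581) nor Ttll9 (0.112) passed.

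Of 15 genes of microtubule dynamics tested 1 rose and 2 fell, again close to the 20.5% called over all genes tested. Stmn3, a stathmin that binds free tubulin dimers, had the lowest log2 fold change among all genes of these lists. It fell from 81.5 and 102 TPM to 4.69 and 12.9 TPM (log2 fold change -3.37, SE 0.45, limma adjusted p = 0.0181). The spindle protein Dlgap5 fell as well (log2 fold change -1.26, limma adjusted p = 0.0386). This call was lost without the trend (limma adjusted p = 0.0521) and under quantile normalization (limma adjusted p = 0.0625). It was also lost without DMSO replicate 2, at a log2 fold change of -1.40. Mapre2, which binds growing ends, rose (log2 fold change 1.92, limma adjusted p = 0.0344). Of 8 genes of severing and minus ends 0 were called by limma, 3 reached an unadjusted p-value below 0.05 (20.5% and 40.2% of all genes tested), and the median was -0.45. Katna1, the catalytic subunit of katanin, had the lowest p-value, at 327 and 318 TPM without DMSO and 183 and 225 TPM with DMSO. Its log2 fold change was -0.67 (limma adjusted p = 0.0956, or 0.0237 with the replicate block). The block called 2 of the 8, Katna1 lower and Camsap2 higher, against 42.6% of all genes tested (24.8% lower and 17.9% higher).

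**Figure D4:**
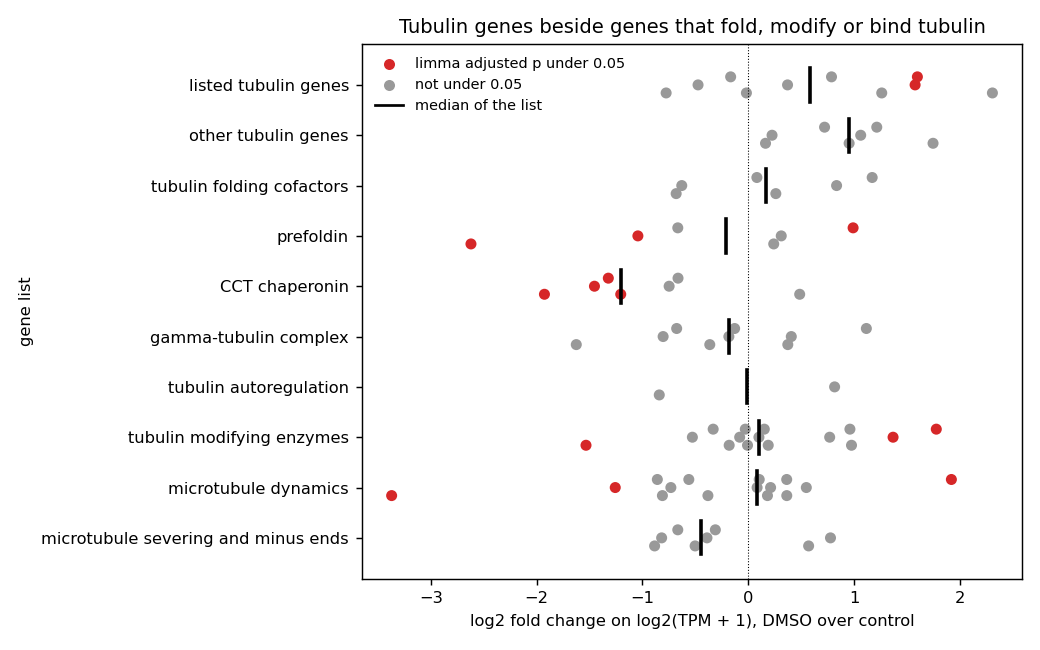
Log2 fold change on log2(TPM + 1), DMSO over control, of each gene tested in 10 lists, red where the limma adjusted p-value is under 0.05, with the median of each list as a black bar. The medians of the listed and the other tubulin genes lie at 0.58 and 0.95, that of the CCT chaperonin at -1.21, and Stmn3 is the point at -3.37.

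The genes whose pattern over the 4 libraries was most like that of the alpha sum, by Euclidean distance of centred log2(TPM + 1) among 5655 genes averaging 10 TPM or more, included Acaca (distance 0.0775) and Rbm44 (0.0893). For the beta sum they were Ap2m1 (0.0278), Dcaf12 (0.0439) and Hspa2 (0.0467). Like the sums, these genes were higher in replicate 1 of each group, as Ap2m1 shows with 33.2 and 24.5 TPM without DMSO and 39.6 and 26.8 TPM with DMSO. The genes were picked for their likeness over these same libraries, so the shared order of replicates follows from the choice. The likeness rests on 4 libraries and is a description.

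Of 10 markers of the oocyte and the 2-cell embryo 9 averaged 1 TPM or more. Dppa3, a maternal factor, was the most abundant, at 11639 and 15346 TPM without DMSO and 10828 and 15216 TPM with DMSO. Nlrp5, a maternal gene, was at 0.142 TPM or less in every library. Of the 9, limma called 2 higher in DMSO embryos and 0 lower, near the 20.5% called over all genes tested (6.42% higher and 14.1% lower). They were the oocyte genes Bmp15 (log2 fold change 2.36, limma adjusted p = 0.0221) and Oosp1 (log2 fold change 1.43, limma adjusted p = 0.0273). Without DMSO replicate 2 the Oosp1 call was lost. With the replicate block 5 were called higher (Bmp15, Gdf9, Oosp1, Zar1 and Zscan4c) and 0 lower, against 17.9% and 24.8% of all genes tested. Of the 9 log2 fold changes 5 were positive. The other 4 were negative, at -0.80 for Padi6, -0.42 for Zp3, -0.06 for Dppa3 and -0.05 for Zscan4d, so the markers did not move as a set. The list summed to 12746 and 16071 TPM without DMSO and 13682 and 17425 TPM with DMSO. The 10 markers of cumulus and granulosa cells, which surround the oocyte, summed to 3.51 and 2.51 TPM and to 4.80 and 3.70 TPM, with Cyp11a1 the most abundant and Amh listed at 0 in all libraries. The 6 sperm markers summed to 2.96 and 3.38 TPM and to 13.5 and 8.69 TPM, with Prm2 the most abundant and Tnp2 listed at 0. The 2 that were tested were called higher by limma, against 6.42% of all genes tested. They were Prm2 (limma adjusted p = 0.0408) and Tnp1 (limma adjusted p = 0.0429). At 0.281 and 0 TPM without DMSO, Tnp1 passed the filter only through its DMSO levels. With a pseudocount of 0.1 the limma adjusted p-value of Tnp1 was 0.0845. Without DMSO replicate 2 the calls of Prm2 and Tnp1 were lost. The 3 blood markers summed to 4.08 and 1.60 TPM and to 3.80 and 4.52 TPM, with Hba-a1 the most abundant. The part of the oocyte and sperm markers in the tubulin results was not tested, and in pools of embryos fewer embryos with a transcript and less of it per embryo cannot be told apart.

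The promoters of Tubb2a and Tubb4b, the beta genes with the log2 fold change farthest from 0 and nearest to 0 at a pseudocount of 1 among those with a RefSeq promoter, are shown for reference, as the 250 bases before the RefSeq start (GRCm38.p6), 5′ to 3′ on the strand of the gene. RefSeq promoters were found for 7 of the 10 genes. Capitals mark 3 motifs searched on both strands. They are CCAAT (the box bound by NF-Y), then TATAAA (the TATA box), and last GGGCGG (a GC box).
Tubb2a (chr13:34078009-34078258, minus strand): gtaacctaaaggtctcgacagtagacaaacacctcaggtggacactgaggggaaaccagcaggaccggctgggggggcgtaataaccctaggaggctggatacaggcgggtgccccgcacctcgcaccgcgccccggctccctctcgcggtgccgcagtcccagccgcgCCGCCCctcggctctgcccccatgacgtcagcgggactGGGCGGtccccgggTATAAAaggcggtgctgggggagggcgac
Tubb4b (chr2:25224703-25224952, minus strand): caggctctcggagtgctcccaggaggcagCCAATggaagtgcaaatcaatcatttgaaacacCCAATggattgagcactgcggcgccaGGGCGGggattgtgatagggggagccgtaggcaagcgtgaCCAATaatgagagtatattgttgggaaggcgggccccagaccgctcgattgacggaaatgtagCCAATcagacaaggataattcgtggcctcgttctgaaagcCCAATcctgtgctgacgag
Tubb2a holds 1 TATAAA, 2 GGGCGG and 0 CCAAT, and Tubb4b 5 CCAAT, 1 GGGCGG and 0 TATAAA. Of 32851 mouse promoters cut to the same length, 33.8% hold CCAAT, 12.4% TATAAA and 32.7% GGGCGG on either strand. A match is a description of the letters and says nothing of binding in these embryos.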

How the data were processed

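Whole 2-cell embryos gave 4 libraries, 2 per group, through a low-input cDNA kit. The authors quantified reads with kallisto against GRCm38 transcripts and used tximport to obtain the deposited TPM per gene. The submitters' processing notes also name STAR, SAMtools and bedtools, with no versions. No count test fits TPM, and depth is unknown. GENCODE M21 named 29668 of 30049 gene identifiers.

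The test was limma 3.58.1 (R 4.3.3, eBayes with trend) on log2(TPM + 1) for genes averaging 1 TPM or more, without a block, and p-values were adjusted by Benjamini and Hochberg over all genes, with 0.05 as threshold. Fold changes on this scale understate those of low genes. For family sums, the same fit was run with the listed genes replaced by their sum. Intervals are at 95% with the moderated degrees of freedom. Shared words of 31 bases were counted on either strand in GENCODE transcripts. Promoters are from RefSeq. Alternatives changed the pseudocount (0.1), the filter (none, or 5 TPM), the trend, the scaling (median ratio or quantiles), the block, the libraries kept and the genes summed. The members, the lists and the rule for named genes (all tubulin genes, and of each other list up to 4 called genes with the largest change or, with none called, the one with the lowest p) were chosen with earlier results of these data known, and Cnot11 and Scaper were named after their values were seen. One gene that the likeness rule names is not reported here. Other steps ran in Python 3.11.15 (scipy 1.17.1, numpy 2.4.6, pandas 2.3.3, matplotlib 3.10.9).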

Additional observations from a re-analysis of the deposited data

How the results depend on the processing

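Over all genes tested, limma called 2470 genes. Tested on every gene above 0 TPM it called 0, and 5368 genes reached an unadjusted p-value below 0.05. The replicate block gave 5132 calls, and fits without any one library gave 0, except that without DMSO replicate 2 there were 1883 calls. Of the 10 tubulin genes 2 were called, both higher. With a pseudocount of 0.1 this was 1 higher, Tuba1a (17.1% of all genes called), as it was with a mean of at least 5 TPM (32.8% called), where Tubb2b was not among the 9 tested. With no filter it was 0, and 4 of the 10 reached an unadjusted p-value below 0.05, as did 24.1% of all genes. Without any one library it was 0. Under median-ratio scaling, quantile normalization and no trend, Tuba1a and Tubb2b were again the genes called. In these settings limma called 18.4%, 18.3% and 16.8% of all genes tested, in this order, so 2 of 10 was again near the background.

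With the replicate number as a block limma called 6 tubulin genes, 5 higher (Tuba1a, Tuba4a, Tubb2a, Tubb2b and Tubb6) and 1 lower (Tuba1b), and of the 7 other tubulin genes it called 4 higher (Tubal3, Tubb3, Tube1 and Tubg2). Over all genes tested the block called 42.6%, 17.9% higher and 24.8% lower. Libraries with the same number deviated together (r = 0.35 over 12038 genes, which are not independent replicates), but with 2 groups of 2 libraries and no label on what a number marks, the libraries share only a number, and the block is given as a hint from the data.

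Without any one library the log2 fold change of the alpha sum lay between 0.15 and 0.85, that of the beta sum between -0.11 and 0.47 and that of Tubg1 alone between -0.45 and 0.11. The gamma value changed from -0.17 to 0.12 under quantile normalization, and to 0.38 when Tubg2 was added to the sum, also with pseudogenes. The value of Tubg1 as a single gene was likewise 0.12 under quantile normalization. That of Tubb4b changed from -0.02 to 0.084 under median-ratio scaling and to 0.22 under quantile normalization. Without any one library Tubb4b lay between -0.22 and 0.19, Tuba1c between -0.18 and 0.92, Tuba3a between -0.11 and 0.56 and Tuba3b between -0.67 and 0.99. The cause of these changes was not tested. The median over all genes was -0.09, and after either rescaling it was within 0.01 of 0.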
